A study of Homo sapiens with 6 samples.

Results

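The genes of the eukaryotic translation initiation factors (eIFs) were examined in the transcriptome of HCT116 cells, a human colon carcinoma line, with and without oxaliplatin. Members were the rows of the deposited count table whose gene symbol starts with EIF and a digit from 1 to 6, after pseudogenes and antisense genes had been dropped. Of 58 such symbols, 0 were pseudogenes and 2 were dropped, EIF1B-AS1 as antisense and EIF3J-DT as a divergent transcript. The remaining 56 genes, among 27942 in the table, fell into 11 groups by role. The symbols EIF4EBP1, EIF4EBP2 and EIF4EBP3 end in a P and a digit but are protein-coding genes and were kept. EIF1AY was counted with the others and is given no values. Untreated cells (NT) gave 3 libraries, and cells exposed to 0.5 µM oxaliplatin for 24 h (OXA) gave 3. Oxaliplatin is a platinum compound that forms DNA adducts, and this dose was chosen in the study as the IC50 of the line. Both groups were the same parental line grown in the same medium, so the values describe 1 cell line, 1 dose and 1 time.

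Initiation is the step at which the small ribosomal subunit finds the start codon of an mRNA. The heterotrimer eIF2 carries the initiator tRNA as a GTP-bound complex, eIF2B recharges eIF2 with GTP, and eIF3, eIF1 and eIF1A bind the small subunit. The mRNA is brought in by eIF4F, in which eIF4E holds the cap, eIF4A unwinds RNA and eIF4G is the scaffold. Stress kinases phosphorylate the alpha subunit of eIF2 and so block eIF2B, and the 4E-binding proteins (4E-BPs) take eIF4E away from eIF4G when mTOR does not phosphorylate them. These controls act on proteins, and the libraries measured mRNA only.

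Several of these mRNAs are themselves known targets of such control, through a run of pyrimidines that begins with a C at the first transcribed base (a terminal oligopyrimidine start). Sequence around the annotated starts was available for 47 of the 56 members, with 63 starts in all, from the RefSeq table on GRCh38.p14. A C at the start followed by at least 4 bases that are C or T was found at 10 of the 63 starts (15.9%), each of a different gene, against 4.07% of all 35116 starts in the table. Of these, 6 are shown because they span the roles of the machinery and include a gene with its copy. Each is written 5′ to 3′ on the strand of the gene, from 15 bases before the start to 15 bases from it, and the capitals mark the pyrimidine run that begins at the first transcribed base. EIF4B lies at chr12:53006441-53006470 (plus strand), EIF4A2 at chr3:186783562-186783591 (plus), EIF3D at chr22:36529152-36529181 (minus), EIF3F at chr11:7987322-7987351 (plus), EIF2S3 at chrX:24054941-24054970 (plus) and EIF2S3B at chr12:10505875-10505904 (plus).
EIF4B: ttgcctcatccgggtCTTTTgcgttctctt
EIF4A2: gttgggcgccgctgtCTTTTCagtcgggcg
EIF3D: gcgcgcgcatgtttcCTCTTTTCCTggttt
EIF3F: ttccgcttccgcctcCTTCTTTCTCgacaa
EIF2S3: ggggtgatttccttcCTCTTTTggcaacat
EIF2S3B: ggggtgactttcttcCTCTTTTggcaacat

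The other 4 genes with such a start were EIF2A, EIF2D, EIF3K and EIF3M. EIF2S3 and EIF2S3B share the whole 7-base run and the bases after it. A match of letters is a description of the annotated start, and the start used in these cells was not measured. In the window from 250 bases before to 50 after the start, the E-box CACGTG, which reads the same on both strands, was present at 12 member starts (19.0%) and at 7.26% of all starts. The GC box GGGCGG, on either strand, was present at 44 member starts (69.8%) and at 45.0% of all starts. Those 44 starts belong to 35 genes, and windows of starts close together in a gene overlap, so a box can be counted more than once.

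The libraries held between 32979521 and 40967880 counts. CDKN1A and MDM2, textbook p53 targets, were 7.60-fold and 4.66-fold higher in OXA (edgeR adjusted p = 0.000445 for both), without overlap between the groups. All 6 epithelial markers were detected, with sums of 79018 to 113818 normalized counts in NT and 127725 to 151275 in OXA. These markers did not share a direction. Before scaling, KRT19 spanned 6287 to 15939 reads without the drug but 22533 to 33089 with it, and KRT18 was also higher without overlap. CDH1 went the other way, spanning 3874 to 4254 reads without the drug but 3282 to 3585 with it. For EPCAM, KRT8 and CLDN7 the unscaled groups overlapped. Of 4 immune markers 2, and of 5 fibroblast or endothelial markers 1, were at 3 or fewer counts in every library, and the sums of these lists stayed between 136 and 317 normalized counts. The part of the higher epithelial sum in the results was not tested. Among libraries of the same group, NT library 1 stood farthest from its partners, with a chi-square per gene of 83.1 and 75.7 against NT libraries 2 and 3, where the other pairs gave 19.2 to 29.6. Libraries with the same number deviated together from their group means, with correlations of 0.48, 0.47 and 0.26. What separates the libraries of a group is not stated, so p-values measure the spread between these libraries, which may be technical. In bulk RNA, fewer cells with a transcript and less of it per cell cannot be told apart.

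All 56 genes passed the filter on low counts and were tested, and 0 of them had an edgeR adjusted p under 0.05 in either direction, where 5.07% of the 13727 genes tested did (2.78% higher and 2.29% lower). At an unadjusted p under 0.05, edgeR placed 6 members higher and 2 lower in OXA (14.3%, against 21.7% of all genes). DESeq2 called 2 members higher, EIF6 and EIF2B4, and 1 lower, EIF4E3 (of all genes, DESeq2 called 9.26%, with 4.63% higher and 4.63% lower). Without NT library 1, edgeR called 0 members, against 8.60% of all genes (4.49% higher and 4.11% lower). The median log2 fold change of the members was 0.084, against 0.023 over all genes tested, and the median size without sign was 0.17, against 0.19. A positive log2 fold change was found for 36 of 56 members (64.3%), against 53.3% of all genes.

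With the replicate number as a block, which compares each OXA library with the NT library of the same number, 14 members rose (25.0%, where 12.1% of all genes rose) and 4 fell (7.14%, where 10.9% fell). Together they were 32.1% of the members, against 23.0% of all genes. The 12 with the smallest p in that fit were EIF6, EIF4EBP2, EIF3C, EIF2B4, EIF4B, EIF3G, EIF3I, EIF2B2, EIF1, EIF3B, EIF2AK4 and EIF4E3. OXA was on the same side of NT in all 3 same-numbered pairs for 28 members that were higher and 17 that were lower (80.4% together, against 61.4% of all genes, of which 33.8% were higher and 27.6% lower). The NT and OXA values did not overlap for 10 members that were higher and 2 that were lower (21.4% together, against 28.9% of all genes, of which 14.5% were higher and 14.4% lower). The counts of the blocked fit changed with the pairs used: they were lower without pair 2 or pair 3 and higher without pair 1. Without pair 2, edgeR with the block called 1 member higher and 1 lower. Without pair 3 it called 4 and 2, and without pair 1 it called 21 and 8. Each of these fits had 1 residual degree of freedom. The share of all genes that they called was not taken, so these counts have no background to be read against.

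**Figure D1:**
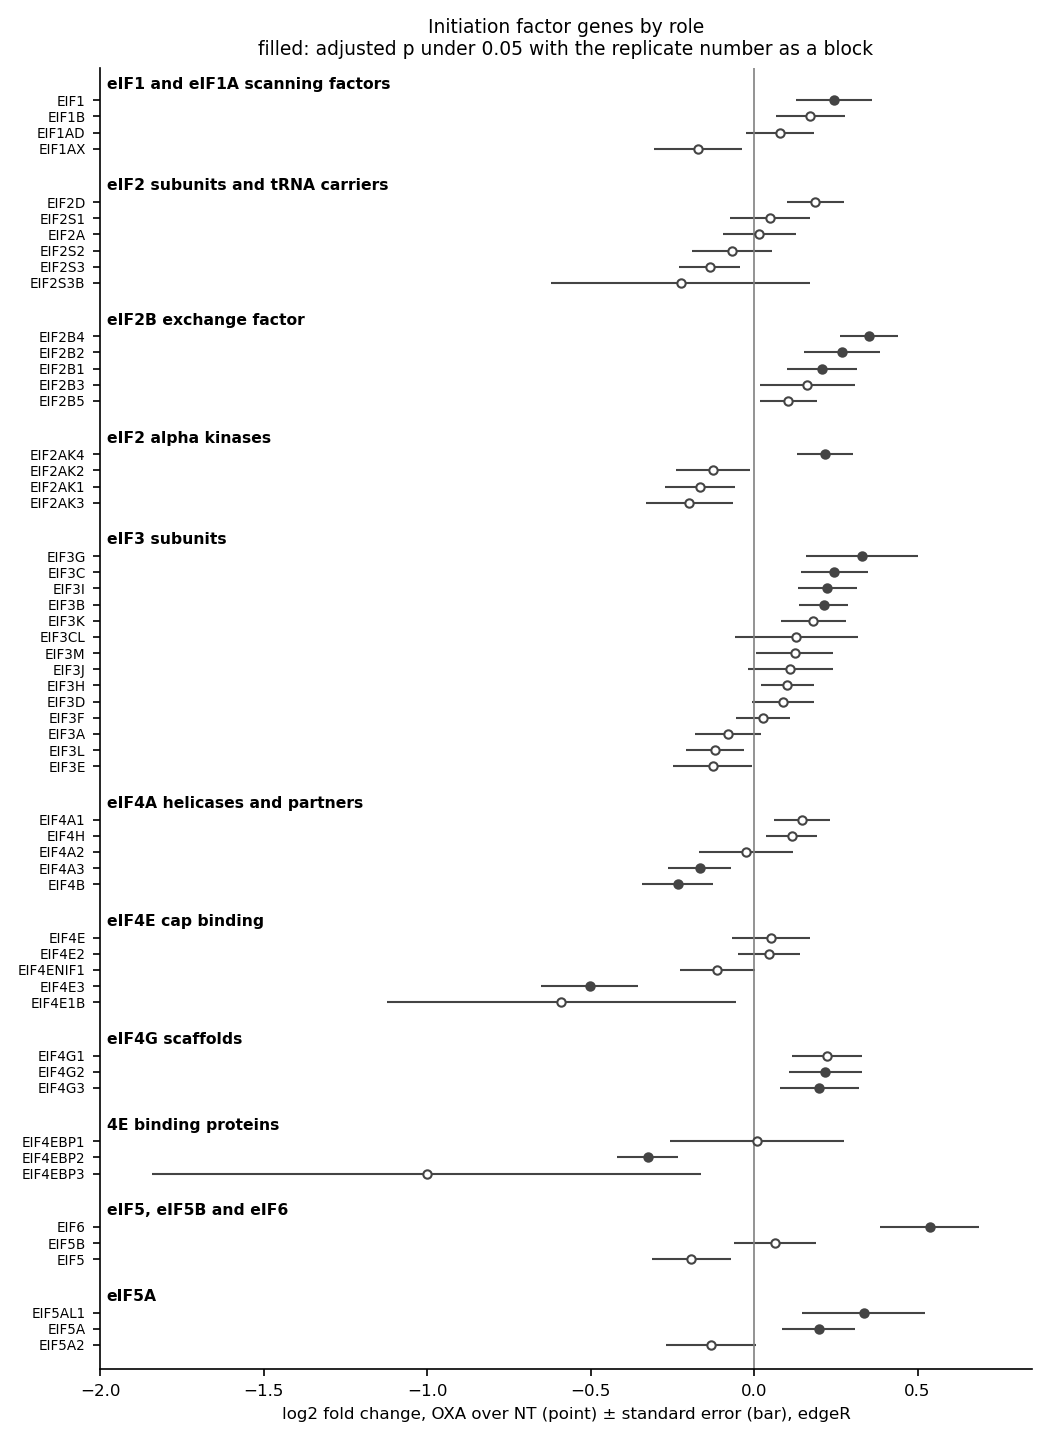
Log2 fold change of OXA over NT (x axis) for 55 initiation factor genes (y axis), grouped by role, from edgeR without a block; bars are the standard error, and filled points have an adjusted p under 0.05 in the blocked fit. All 5 eIF2B genes and all 3 eIF4G genes lie to the right of 0, EIF6 lies farthest to the right at 0.54, and the widest bars belong to EIF4EBP3, EIF4E1B and EIF2S3B, which have few counts.

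EIF6, which keeps the large ribosomal subunit from joining the small one too early, had the highest fold change of all members. It lies on chromosome 20 at 35278907 to 35284985 (GRCh38, minus strand). Its normalized counts (counts scaled to a common library size by TMM) were 4463, 5426 and 6688 in NT libraries 1 to 3 and 7569, 7700 and 8779 in OXA libraries 1 to 3. Every OXA library was above every NT library, and NT library 1 was the lowest of all. The means were 5526 ± 1116 (SD, n = 3) in NT and 8016 ± 664 in OXA, a 1.45-fold difference (log2 fold change 0.54 with a standard error, SE, of 0.15, edgeR adjusted p = 0.0864). With the block, EIF6 rose (log2 fold change 0.55, edgeR adjusted p = 0.00894). Over the alternatives its adjusted p ran from 0.00894 to 0.264.

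Of the other genes in the group of EIF6, EIF5 activates GTP hydrolysis by eIF2 at the start codon and EIF5B joins the subunits. EIF5 had 15399, 11912 and 12524 normalized counts in NT and 12316, 10505 and 12059 in OXA (log2 fold change -0.19, edgeR adjusted p = 0.418). Its groups overlapped, with NT library 1 high, although OXA was lower in each same-numbered pair. EIF5B had 14392, 11493 and 10603 normalized counts in NT and 13621, 12341 and 12182 in OXA, also with overlap (log2 fold change 0.064, edgeR adjusted p = 0.819).

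EIF2B4 encodes the delta subunit of eIF2B, the exchange factor that phosphorylated eIF2 blocks. The gene lies on chromosome 2 at 27364352 to 27370338 (minus strand). Normalized counts were 1590, 1773 and 1705 in NT and 2233, 2165 and 2069 in OXA, with a clear gap between the groups and little spread within either. The means were 1689 ± 93 (SD, n = 3) and 2156 ± 83 (log2 fold change 0.35 with SE 0.089, edgeR adjusted p = 0.0679). This was the smallest adjusted p of any member without the block, and EIF2B4 rose with it (edgeR adjusted p = 0.0189, range over the alternatives 0.0189 to 0.261).

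The eIF2B genes as a group had log2 fold changes above 0 in 5 of 5 cases (0.10 to 0.35, median 0.21), OXA was higher in each same-numbered pair for all 5, and 3 of 5 rose with the block. Over all genes tested, 33.8% were higher in each pair and 12.1% rose with the block. EIF2B2, the beta subunit, had 1952, 1721 and 1665 normalized counts in NT and 2420, 2050 and 1958 in OXA. The groups were apart by a narrow margin, NT library 1 at 1952 against OXA library 3 at 1958 (log2 fold change 0.27, edgeR adjusted p = 0.233, 0.0236 with the block). Without OXA library 1 the log2 fold change was 0.17. EIF2B5, the catalytic epsilon subunit, had the lowest fold change of the group. Its normalized counts were 2562, 2471 and 2475 in NT and 2879, 2521 and 2673 in OXA, with overlap (log2 fold change 0.10, edgeR adjusted p = 0.543).

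EIF2A and EIF2D, proteins that can also carry tRNA to the ribosome, were grouped with the eIF2 subunits. Of these genes, 3 had positive and 3 negative log2 fold changes (median -0.026). By edgeR 0 of 6 were called without the block, where 5.07% of all genes were, and 0 of 6 with it, where 23.0% were. With 6 genes these counts say nothing particular of the group. EIF2D was the highest, with 2702, 2478 and 2739 normalized counts in NT and 3164, 2853 and 2997 in OXA. Its groups did not overlap (log2 fold change 0.19, edgeR adjusted p = 0.267, 0.0504 with the block). EIF2S3B, an autosomal copy of the gamma subunit gene EIF2S3, was the lowest, at 46, 27 and 25 raw reads counted in NT and 25, 36 and 20 in OXA (log2 fold change -0.22 with SE 0.40). Reads may be shared between EIF2S3 and EIF2S3B, and at these counts no difference was detectable.

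The 4 kinases that phosphorylate eIF2 alpha divided by direction, although only EIF2AK4 was called, and only with the block. EIF2AK4 encodes GCN2, which senses uncharged tRNA and stalled ribosomes. Its normalized counts were 4242, 3802 and 4064 in NT and 4870, 4426 and 4780 in OXA, without overlap (log2 fold change 0.22 with SE 0.086, edgeR adjusted p = 0.196, 0.0263 with the block). Without NT library 2 the log2 fold change was 0.14. EIF2AK3 encodes PERK, the kinase of endoplasmic reticulum stress, and had 1056, 850 and 861 normalized counts in NT and 872, 714 and 825 in OXA. Its groups overlapped (log2 fold change -0.20, edgeR adjusted p = 0.443, 0.125 with the block). Negative values were found for 3 of the 4 kinases, each lower in all same-numbered pairs, where 27.6% of all genes were. Whether EIF2AK4 differed from the other kinases in response was not tested.

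The scanning factors eIF1 and eIF1A hold the small subunit open until the start codon is met. EIF1 had 13175, 11635 and 13716 normalized counts in NT and 15034, 13448 and 17142 in OXA. OXA library 2 lay inside the NT range, but OXA was above NT in each pair, and EIF1 rose with the block (log2 fold change 0.24, edgeR adjusted p = 0.274, 0.0245 with the block). Its log2 fold change was 0.15 without NT library 2 and 0.12 without OXA library 3. EIF1AX had 7383, 5674 and 6553 normalized counts in NT and 5930, 4982 and 6490 in OXA, with overlap (log2 fold change -0.17, edgeR adjusted p = 0.515). In this group 4 of 5 genes had positive log2 fold changes, where 53.3% of all genes did. With the block 1 of 5 rose, where 12.1% of all genes rose.

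**Figure D2:**
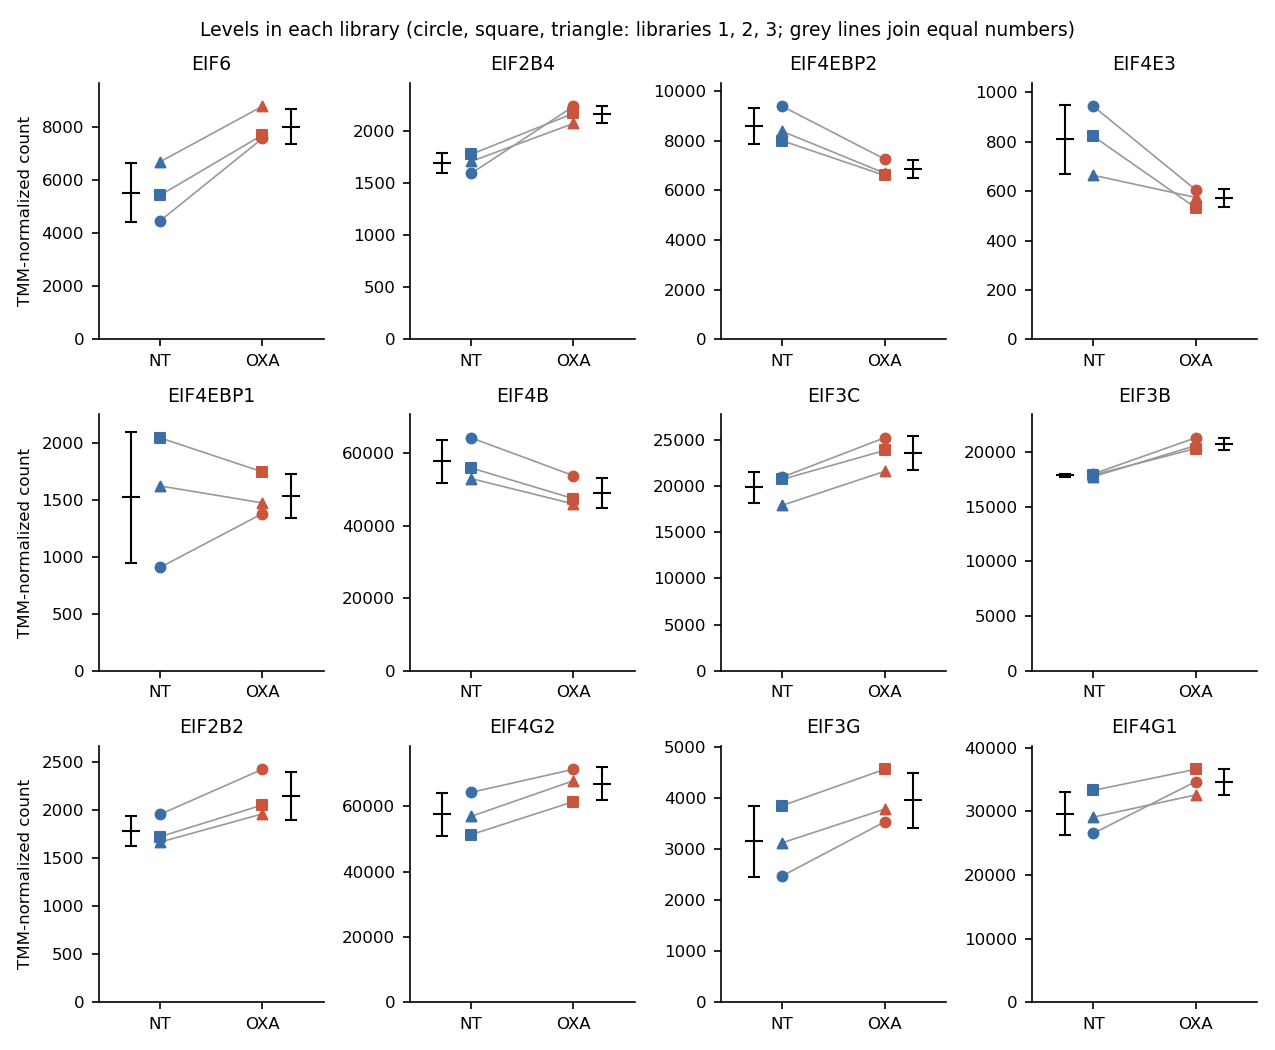
TMM-normalized counts (y axis, from 0) of 12 initiation factor genes in each of the 3 NT and 3 OXA libraries; circles, squares and triangles are libraries 1, 2 and 3, grey lines join equal numbers, and black bars are the mean and SD of 3 libraries. EIF6 and EIF2B4 lie higher in all OXA libraries, EIF4EBP2 and EIF4E3 lie lower in all of them, and EIF4EBP1 spreads from 910 to 2049 within NT.

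The largest group was eIF3, the scaffold on the small subunit, with 14 genes including the copy EIF3CL. Positive log2 fold changes were found for 11 of 14 (median 0.12, range -0.13 to 0.33), 4 rose with the block (EIF3B, EIF3C, EIF3G and EIF3I), and 0 fell. Of all genes, 12.1% rose with the block. These 4, with EIF3A, encode the core of eIF3 that is also found in budding yeast. EIF3A did not share their direction and was lower in each pair. It was not called (log2 fold change -0.079, edgeR adjusted p = 0.704, 0.278 with the block). EIF3B had 17992, 17898 and 17744 normalized counts in NT and 21288, 20307 and 20571 in OXA. The NT values were almost equal and every OXA value lay above them (log2 fold change 0.21 with SE 0.076, edgeR adjusted p = 0.154, 0.0255 with the block).

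EIF3I, a WD-repeat subunit that binds EIF3B, had 15521, 13898 and 15478 normalized counts in NT and 18285, 16279 and 17868 in OXA, without overlap (log2 fold change 0.22, edgeR adjusted p = 0.206, 0.0214 with the block). Its log2 fold change was 0.14 without NT library 2. EIF3G, an RNA-binding subunit, had the highest fold change of the group, with 2479, 3856 and 3127 normalized counts in NT and 3537, 4568 and 3787 in OXA (log2 fold change 0.33 with SE 0.17, edgeR adjusted p = 0.319, 0.0214 with the block). Its groups overlapped because NT library 2 lay above OXA libraries 1 and 3. Its log2 fold change was 0.18 without NT library 1, the lowest, and 0.22 without OXA library 2, the highest.

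EIF3C is a core subunit with a near-identical copy, EIF3CL, on the same chromosome, so the division of reads between them is uncertain. EIF3C had 20952, 20714 and 17903 normalized counts in NT and 25205, 23834 and 21575 in OXA, with every OXA library above NT (log2 fold change 0.25 with SE 0.10, edgeR adjusted p = 0.217, 0.0184 with the block), and without NT library 3 the log2 fold change was 0.14. With the counts of both copies summed, an alternative added after the data had been seen, the log2 fold change was 0.22 (edgeR adjusted p = 0.278, 0.0253 with the block). EIF3E, the lowest of the group, had 31929, 25344 and 24963 normalized counts in NT and 27111, 23267 and 24982 in OXA. NT library 1 was high and the remaining NT and OXA libraries overlapped (log2 fold change -0.13, edgeR adjusted p = 0.605).

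In eIF4F, the scaffold genes pointed the same way while the cap-binding and helicase genes were divided. All 3 eIF4G genes had log2 fold changes near 0.2 and were higher in each pair, and 2 of 3 rose with the block, where 33.8% of all genes were higher in each pair and 12.1% rose. EIF4G1, the canonical scaffold, had 26555, 33311 and 29105 normalized counts in NT and 34686, 36619 and 32598 in OXA. NT library 2 lay above OXA library 3, so the groups overlapped (log2 fold change 0.22, edgeR adjusted p = 0.278, 0.0522 with the block). EIF4G2 encodes DAP5, a scaffold without an eIF4E site that serves cap-independent initiation, and had 64265, 51324 and 56924 normalized counts in NT and 71321, 61430 and 67830 in OXA (log2 fold change 0.22, edgeR adjusted p = 0.311, 0.0290 with the block). EIF4G3, a second full-length scaffold, had 3579, 3206 and 2864 in NT and 4134, 3641 and 3309 in OXA (log2 fold change 0.20, edgeR adjusted p = 0.389, 0.0342 with the block). For EIF4G2 and EIF4G3 the groups overlapped, and the order of the libraries was kept from NT to OXA. The log2 fold change of EIF4G2 was 0.11 without NT library 2, and that of EIF4G3 was 0.090 without NT library 3 and 0.11 without OXA library 1.

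EIF4B encodes an RNA-binding partner that raises the activity of the eIF4A helicase, and its start sequence is printed above. It had 64133, 55843 and 52922 normalized counts in NT and 53724, 47397 and 45943 in OXA. OXA library 1 lay above NT library 3, but within each pair OXA was lower, and EIF4B fell with the block (log2 fold change -0.23 with SE 0.11, edgeR adjusted p = 0.266, 0.0209 with the block). Without NT library 1 its log2 fold change was -0.15. EIF4A1, the main helicase, had 54328, 50316 and 50417 normalized counts in NT and 59362, 54001 and 58192 in OXA (log2 fold change 0.15, edgeR adjusted p = 0.379, 0.0811 with the block). EIF4A2, a second form of the helicase, had 10233, 9148 and 7519 in NT and 9803, 9126 and 7497 in OXA (log2 fold change -0.026, edgeR adjusted p = 0.941). Its libraries 1, 2 and 3 stood in the same order in both groups, and the values of OXA nearly repeated those of NT. Of the 5 genes of this group, 2 fell with the block and 0 rose, where 10.9% of all genes fell and 12.1% rose. The 2 were EIF4B and EIF4A3 (log2 fold change of EIF4A3 -0.17, edgeR adjusted p = 0.375, 0.0480 with the block).

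Of the cap-binding genes, EIF4E3 was apart from the rest. It encodes a member of the eIF4E family that binds the cap in an atypical way, and lies on chromosome 3 at 71675414 to 71754773 (minus strand). Normalized counts were 944, 822 and 664 in NT and 606, 533 and 575 in OXA, with every OXA library below NT. The means were 810 ± 140 (SD, n = 3) and 571 ± 37 (log2 fold change -0.50 with SE 0.15, edgeR adjusted p = 0.0993), and EIF4E3 fell with the block (edgeR adjusted p = 0.0287, range over the alternatives 0.0287 to 0.30). EIF4E itself had 6695, 5353 and 6018 in NT and 6579, 5479 and 6675 in OXA (log2 fold change 0.052, edgeR adjusted p = 0.845). EIF4E2, a cap-binding repressor, had 3364, 2863 and 2974 in NT and 3355, 3030 and 3112 in OXA (log2 fold change 0.046, edgeR adjusted p = 0.828). For both, the groups overlapped and the pairs did not share a direction, and the sign turned when NT library 2 was left out (-0.058 and -0.034). EIF4E1B, a germline form, was at 6, 11 and 12 raw reads counted in NT and 4, 3 and 12 in OXA, too few to show a difference (log2 fold change -0.59 with SE 0.53).

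The 4E-BPs bind the same site on eIF4E as eIF4G does. EIF4EBP2, on chromosome 10 at 70404145 to 70428618 (plus strand), had 9387, 8001 and 8381 normalized counts in NT and 7265, 6606 and 6696 in OXA. All OXA libraries were below all NT libraries, and libraries 1 were the highest of both groups. The means were 8590 ± 716 (SD, n = 3) and 6856 ± 358, a ratio of 0.798 (log2 fold change -0.33 with SE 0.094, edgeR adjusted p = 0.0931), and EIF4EBP2 fell with the block (edgeR adjusted p = 0.00982, range over the alternatives 0.00982 to 0.289).

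EIF4EBP1, the best known of the 4E-BPs, had 910, 2049 and 1626 normalized counts in NT and 1383, 1750 and 1477 in OXA. The NT libraries enclosed all OXA libraries, so the spread within NT was wider than any difference between the groups (1528 ± 576 and 1537 ± 191, SD, n = 3; log2 fold change 0.0076 with SE 0.27, edgeR adjusted p = 0.993). OXA was higher in pair 1 by 0.60 on the log2 scale and lower in pairs 2 and 3, with differences of -0.23 and -0.14. Without NT library 1 the log2 fold change was -0.26 (edgeR adjusted p = 0.274), and with the block and without pair 1 it was -0.18 (edgeR adjusted p = 0.00877, range over the alternatives 0.00877 to 1.00). No direction can be given for EIF4EBP1 from these 6 libraries.

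EIF4EBP3 was at 10, 33 and 58 raw reads counted in NT and 1, 30 and 17 in OXA. It overlaps the read-through gene ANKHD1-EIF4EBP3, which shares its exons, so its counts are uncertain. The groups overlapped (log2 fold change -1.0 with SE 0.84, edgeR adjusted p = 0.547).

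EIF5A, despite its name, acts mainly in elongation and is the protein that carries hypusine. It had 28289, 34502 and 35829 normalized counts in NT and 35175, 38612 and 39278 in OXA, with NT library 1 low and NT library 3 above OXA library 1 (log2 fold change 0.20 with SE 0.11, edgeR adjusted p = 0.364, 0.0486 with the block). Without NT library 1 its log2 fold change was 0.10. EIF5AL1 is a near-identical intronless copy, and its 767, 1015 and 713 normalized counts in NT and 1069, 1242 and 837 in OXA may hold reads of EIF5A (log2 fold change 0.33, edgeR adjusted p = 0.357, 0.0338 with the block, and a log2 fold change of 0.21 without NT library 3 and 0.20 without OXA library 2). With both summed, the log2 fold change was 0.20 (edgeR adjusted p = 0.350, 0.0471 with the block). EIF5A2, a second gene of restricted expression, had 1090, 894 and 1090 in NT and 1000, 796 and 1010 in OXA, lower in each pair with overlapping groups (log2 fold change -0.13, edgeR adjusted p = 0.640).

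Ratios between related genes were taken within each library, where they do not depend on how libraries are scaled. The log2 ratio of EIF4E3 to EIF4E was -2.83, -2.70 and -3.18 in NT and -3.44, -3.36 and -3.54 in OXA. The log2 ratio of EIF4EBP2 to EIF4E was 0.49, 0.58 and 0.48 in NT and 0.14, 0.27 and 0.0044 in OXA. In both, every OXA library was below every NT library, by -0.54 (standard error 0.15) and -0.38 (standard error 0.083) on average. The exact two-sided permutation test gave p = 0.1 for each, the smallest that 3 against 3 libraries allow, and 0.5 after Benjamini-Hochberg adjustment over 10 pairs, so neither passes. These were 2 of 10 ratios tested, and the other 8 overlapped between the groups. The log2 ratio of EIF4EBP1 to EIF4E ran from -2.88 in NT library 1 to -1.39 in NT library 2 and enclosed the OXA values. The difference in the log2 ratio of EIF5A2 to EIF5A was -0.34 (standard error 0.22, exact p = 0.2), and that of EIF4G2 to EIF4G1 was -0.0077 (standard error 0.21, exact p = 1).

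**Figure D3:**
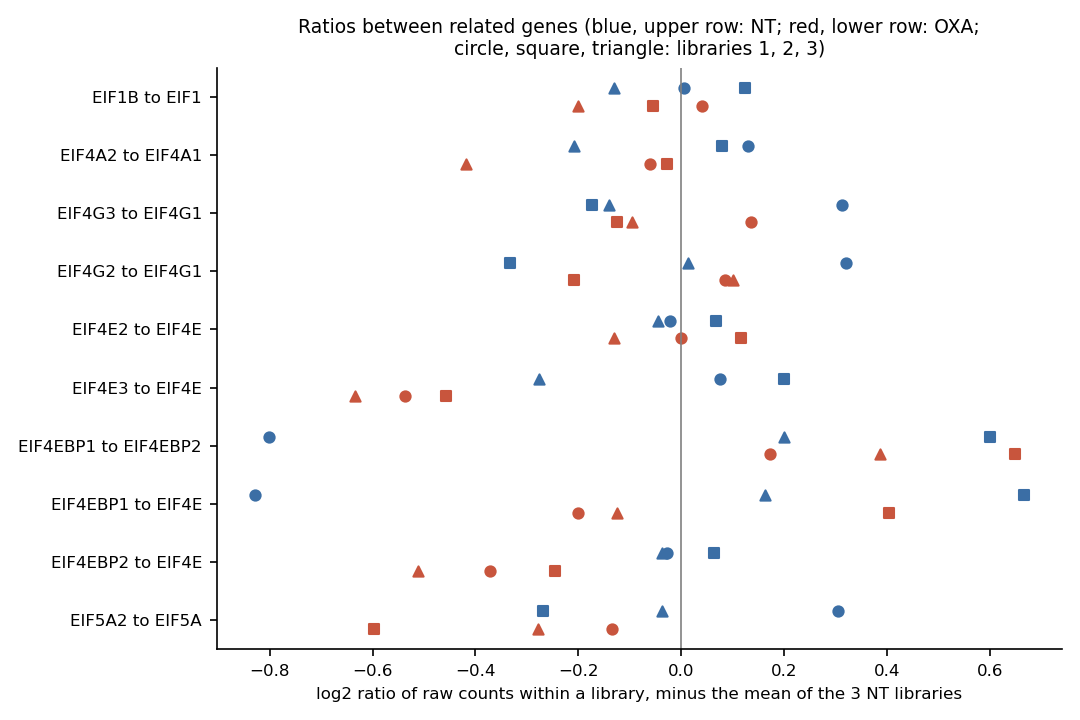
Log2 ratios of raw counts between related initiation factor genes in each library (x axis, minus the mean of the 3 NT libraries) for 10 pairs of genes (y axis); blue is NT and red OXA, and circles, squares and triangles are libraries 1, 2 and 3. The OXA points of EIF4E3 to EIF4E and of EIF4EBP2 to EIF4E lie left of all NT points, and in the other 8 rows the colours overlap.

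Levels were compared between genes only as normalized counts per kilobase of the canonical transcript. In NT, EIF4A1 was the highest at 29401 ± 1301 (SD, n = 3), followed by EIF5A at 26007 ± 3185 and EIF4G2 at 15157 ± 1711. EIF4A1 and EIF5A differed by about the spread of EIF5A, and EIF4G2 and the next gene, EIF4B at 14946 ± 1508, by less than their spreads. EIF4E, the cap-binding subunit, stood much lower, at 2481 ± 276, in place 25 of 56, while EIF4EBP1 and EIF4EBP2 were at 1848 ± 697 and 1147 ± 96. The lowest were EIF4E1B at 4.79 ± 1.48, EIF2S3B at 12.4 ± 4.83 and EIF4EBP3 at 46.9 ± 30.9. Within eIF3, whose subunits are present once per complex, the values ran from 1196 for EIF3F to 13557 for EIF3E, an 11.3-fold range. The low value of EIF3F rests on a canonical transcript of 6920 bases, and a shorter transcript would raise it.

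**Figure D4:**
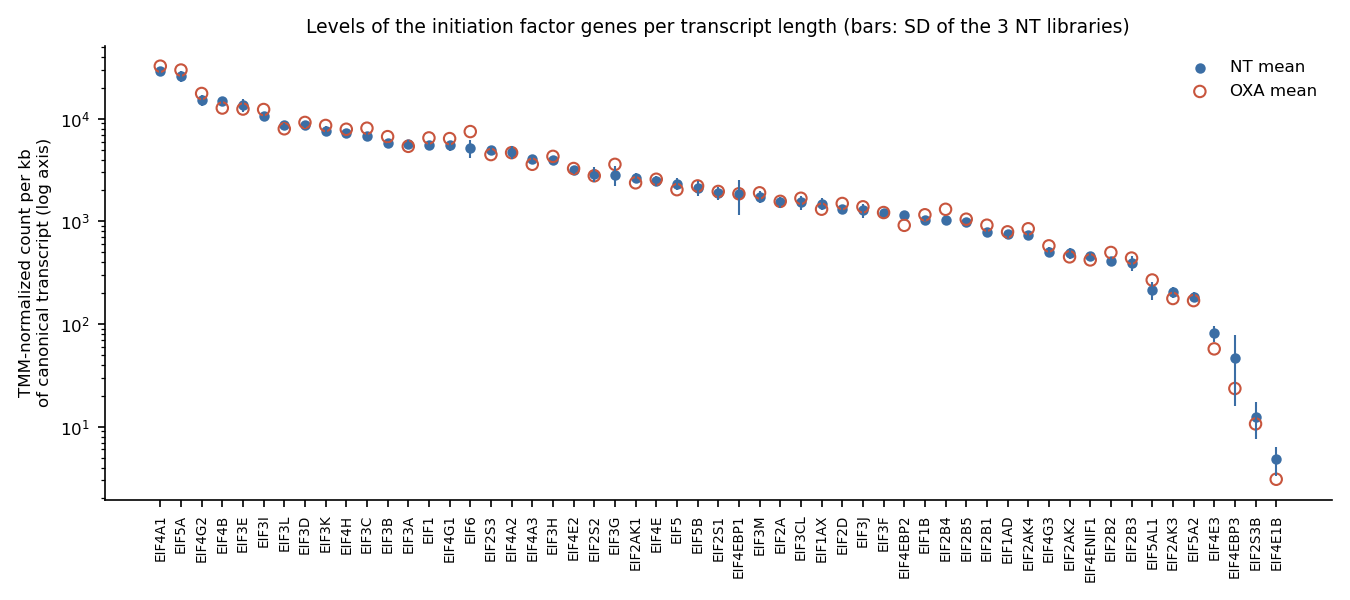
TMM-normalized counts per kilobase of canonical transcript (y axis, log scale) for 55 initiation factor genes, ordered by their NT mean; filled blue points are NT means with bars of 1 SD over 3 libraries, and open red circles are OXA means. Levels run from 29401 for EIF4A1 to 4.79 for EIF4E1B, and for most genes the OXA mean lies close to the NT mean on this scale.

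The distance of NT library 1 from NT libraries 2 and 3 followed the base composition of the members. Across 55 members, the log2 difference between NT library 1 and the mean of the other two had a Pearson correlation of -0.67 with the GC content of the canonical transcript, and the same value was found over 13675 genes. These are genes of the same libraries and not independent replicates. The 28 members at or above the median GC content of 46.3% had a median difference of 0.052, and the 27 below it 0.28. EIF4EBP1, with the highest GC content of these members at 62.9%, was -1.0 in NT library 1, EIF3G (60.2%) was -0.49 and EIF6 (57.3%) was -0.43. The log2 fold change of the members correlated with GC content at 0.20 with all libraries and at -0.11 without NT library 1. EIF6 kept its direction without NT library 1 (log2 fold change 0.40, edgeR adjusted p = 0.0648). The part of base composition in the fold changes was not tested.

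**Figure D5:**
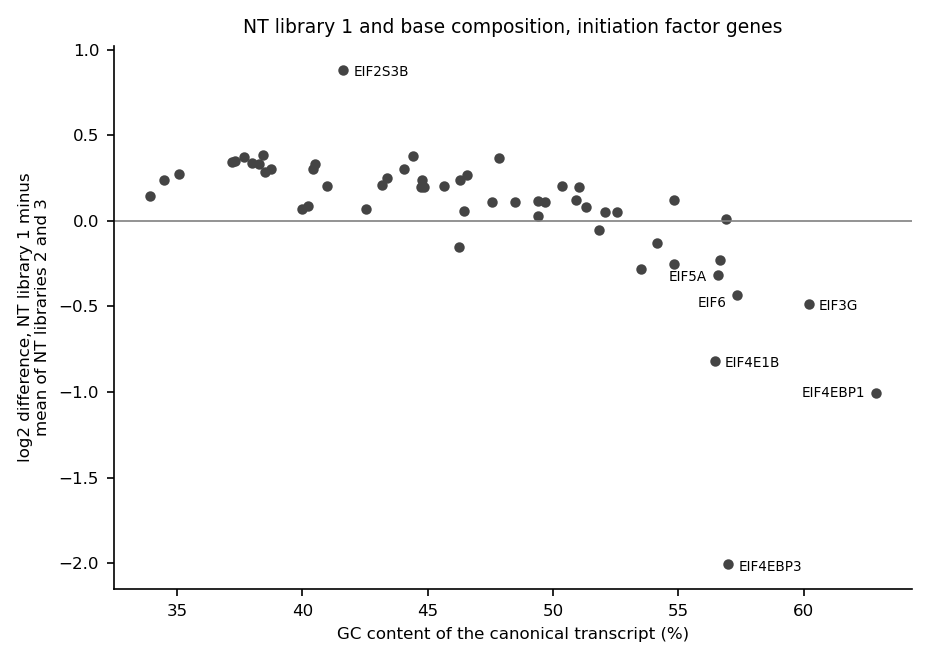
Log2 difference between NT library 1 and the mean of NT libraries 2 and 3 (y axis) against the GC content of the canonical transcript in percent (x axis) for 55 initiation factor genes, each a point. The points fall toward higher GC content, and the lowest belong to GC-rich genes, with EIF4EBP1 at -1.0 and EIF4EBP3, which has few counts, below it.

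The 10 genes with a pyrimidine start had log2 fold changes from -0.23 (EIF4B) to 0.19 (EIF2D), 6 positive and 4 negative, with a median of 0.022 against 0.084 for all members. With the block, 1 of the 10 fell, EIF4B, and 0 rose, where 10.9% of all genes fell and 12.1% rose, so the count says nothing particular of these genes. EIF4B and EIF4A2, whose starts both read C followed by 4 T, had log2 fold changes of -0.23 and -0.026.

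Other genes of translational control, 41 in all, were examined beside the members. In edgeR, 1 of the 41 rose and 1 fell, where 2.78% of all genes rose and 2.29% fell. With the block 6 rose and 5 fell, where 12.1% of all genes rose and 10.9% fell, so the counts are near those shares. Their median log2 fold change was 0.040. The called genes, ATF3 and ATF4, both encode transcription factors and were listed in the group of the eIF2 alpha phosphatase and ATF4 output. Phosphorylation of eIF2 alpha was not measured, and the cause of either change was not tested. Other genes of their group did not share a direction. DDIT3 (log2 fold change 0.19, edgeR adjusted p = 0.568) and TRIB3 (-0.091, edgeR adjusted p = 0.723) were not called with or without the block. The pairs of both were mixed. PPP1R15A and PPP1R15B, which encode subunits of the eIF2 alpha phosphatase, went opposite ways. PPP1R15A was higher in each pair (log2 fold change 0.53, edgeR adjusted p = 0.0544, 0.00711 with the block). PPP1R15B was lower in each pair (log2 fold change -0.16, edgeR adjusted p = 0.370, 0.0919 with the block). ATF3 rose from 500, 452 and 342 normalized counts in NT to 987, 856 and 787 in OXA (log2 fold change 1.02 with SE 0.17, edgeR adjusted p = 0.0185). ATF4, whose mRNA is translated preferentially when eIF2 is phosphorylated, fell from 14858, 14114 and 13130 to 10828, 10115 and 11010 (log2 fold change -0.40 with SE 0.087, edgeR adjusted p = 0.0443). In both the groups were apart. Both calls were lost when any library other than NT library 1 was left out and with the authors' gene-specific factors, while the directions held. Their adjusted p over the alternatives ran from 9.18e-06 to 0.0992 and from 0.00486 to 0.187. Of the 10 genes for cap and poly(A) partners 4 fell with the block, where 10.9% of all genes fell, and of the 10 regulators of eIF4F 2 rose, where 12.1% rose. Neither list had a call without the block.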

How the data were processed

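Poly(A) RNA of HCT116 cells was sequenced as paired reads from stranded libraries. The submitters' processing notes name Trimmomatic 0.32, STAR 2.7.5b, RSEM 1.3.3 and DESeq2 2.13 with GRCh38; the counting step, its annotation and its strand setting are not given in the sources used here. The authors deposited raw counts (whole numbers, which may be rounded estimates) and a normalized signal, the count times a gene-specific factor. The counts were used as deposited. The signal served only for alternatives.

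Genes were filtered with filterByExpr (minimum count 10, minimum total 15), normalized by TMM and compared by edgeR's quasi-likelihood test (edgeR 4.0.16, R 4.3.3) with Benjamini-Hochberg adjustment over 13727 genes and a threshold of 0.05. The standard error was the log2 fold change divided by the square root of F. The fit was tested on simulated counts. The members and lists were chosen with earlier results of these data known. Genes named were EIF4EBP1, members called (at most 12 with the block), the highest and lowest fold change of each role, the genes of 10 preset pairs, the 3 highest and 3 lowest per kilobase and other pathway genes called. EIF2A, EIF2D, EIF2S3, EIF3D, EIF3F, EIF3K and EIF3M were also named for their start sequence, their level or a shared name. EIF3A, EIF3CL, EIF4A3, EIF5B, DDIT3, TRIB3, PPP1R15A, PPP1R15B and the epithelial markers were named for context.

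Replicate numbers come from the labels, which do not say what they stand for. Deviations from group means of same-numbered libraries correlated at 0.48, 0.47 and 0.26, all over 0.1, and those of different numbers at -0.41 to 0.078, so the numbers were taken to pair the libraries. GENCODE on GRCh38 gave the lengths and base composition of transcripts, and RefSeq (GRCh38.p14) the starts. Alternatives were DESeq2 1.42.0 and its size factors, limma-voom (limma 3.58.1), library totals, other filters, the authors' factors, the replicate block and leaving out each library in turn. Summed copies and the block without each pair were added after the data had been seen. PCR duplicates could not be told apart, so counts bound only counting error.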

Additional observations from a re-analysis of the deposited data

How the results depend on the processing

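Of the initiation factor genes, 0 were called higher and 0 lower under edgeR with other size factors, filters or scaling, under limma-voom, with the authors' factors and when any library was left out. DESeq2 called 2 higher and 1 lower. With the replicate block, which pairs libraries by number, 14 were higher and 4 lower, and 13 and 4 with near-identical copies summed. The block without pair 1 gave 21 and 8. Without pair 2 it gave 1 and 1, and without pair 3 it gave 4 and 2. Each of these fits has fewer libraries, and the share of all genes it called was not taken. Of the other pathway genes, DESeq2 called 2 higher, the replicate block 6 higher and 5 lower, and the authors' factors 0 and 0, while leaving out a library gave 0 to 2 higher and 0 to 1 lower. EIF4EBP1 changed sign with library totals (-0.032), without a filter (-0.016), with 1 CPM in 3 libraries (-0.017), with the authors' factors (-0.031) and with the replicate block without pair 1 (-0.18), and ran from -0.26 to 0.25 with a library left out; the cause was not tested. With the authors' normalized values, the ratio of EIF4E2 to EIF4E turned to 0.029 and that of EIF4EBP1 to EIF4E to -0.029. With a library left out, the difference in ratio ran from -0.11 to 0.13 for EIF4G3 to EIF4G1, from -0.17 to 0.15 for EIF4G2 to EIF4G1, from -0.065 to 0.058 for EIF4E2 to EIF4E and from -0.39 to 0.36 for EIF4EBP1 to EIF4E. The log2 fold change likewise changed sign for EIF2S3B (-0.54 to 0.13), EIF4A2 (-0.17 to 0.080), EIF4E (-0.058 to 0.14) and EIF4E2 (-0.034 to 0.12). The other named members that were refitted kept their sign under every alternative run. Depth limits EIF4E1B, EIF2S3B and EIF4EBP3, with at most 58 counts in a library. With 3 libraries a group, permutation tests of a ratio cannot go below p = 0.1, or 0.25 within pairs.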

Other observations

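The 2 dropped transcripts next to member genes were also counted. EIF3J-DT, transcribed away from the start of EIF3J, had 87, 101 and 107 raw reads counted in NT and 84, 99 and 111 in OXA (log2 fold change 0.030 with SE 0.17, edgeR adjusted p = 0.943), with overlapping groups. EIF1B-AS1, antisense to EIF1B, had 16, 15 and 28 raw reads counted in NT and 23, 4 and 14 in OXA (log2 fold change -0.47 with SE 0.55, edgeR adjusted p = 0.678), also with overlap. The strand setting of the counting is not given in the sources used here, so reads of EIF1B and its antisense partner may not be separated. PPP1R15A, a stress-induced subunit of the phosphatase that removes phosphate from eIF2 alpha, was chosen after its values were seen. It had 1124, 1281 and 1008 normalized counts in NT and 1738, 1718 and 1471 in OXA, without overlap (log2 fold change 0.53 with SE 0.12, edgeR adjusted p = 0.0544), and rose with the replicate block (edgeR adjusted p = 0.00711). DOHH, the second enzyme of hypusine synthesis on EIF5A, was also chosen after its values were seen. It had 52.1, 154 and 155 normalized counts in NT and 144, 268 and 207 in OXA, with overlap and with NT library 1 lowest (log2 fold change 0.77 with SE 0.41, edgeR adjusted p = 0.330, 0.0388 with the block). The log2 fold change of DOHH was 0.42 without NT library 1 (edgeR adjusted p = 0.335).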
